A study of Mus musculus with 24 samples.

Results

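Nodal, Lefty1, Lefty2, Smad7, Bmp4, Id1, Id2, Id3 and Smad6, 9 genes of the Nodal and bone morphogenetic protein (BMP) signalling pathways and their targets, were followed through mouse embryonic stem cells (mESCs) that lack a subunit of an ISWI chromatin remodelling complex. The genes were chosen by symbol from 24594 genes in the counts table, and all 9 passed the filter on low counts. Their mRNA did not move as a single group. Lefty1 and Lefty2 fell together in Rsf1Δ, BptfΔ and Acf1Δ cells and rose together in WstfΔ cells and in the libraries labelled Cecr2Δ. Nodal was higher in 4 of the 6 lines, in Acf1Δ by a call that rested on single libraries, and lower in none. Id2 fell in 5 lines, but Id1 and Id3 did so in 1 and 2 lines.

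RNA-seq covered 24 libraries in 5 batches, named A to E in the labels. The parental wild-type (WT) mESCs, of the 129S6/SvEvTac background, gave 2 libraries each in batches A, B, C and E and 3 in batch D, 11 in all. Batch A also held 2 libraries of Rsf1Δ (RSF complex) and 2 of WstfΔ (the gene Baz1b, WICH complex), which therefore share their WT libraries. Batch B held 2 of Tip5Δ (Baz2a, NoRC), batch C 2 of BptfΔ (NURF), batch D 3 labelled Cecr2Δ (CERF) and batch E 2 of Acf1Δ (Baz1a, ACF and CHRAC). All cells grew in serum with LIF on gelatin and were untreated. Each deletion was made with CRISPR–Cas9 and is represented by a single clone, so that a change cannot be told apart from a difference between clones. The study calls the libraries of a group independent replicates, and the p-values measure the spread between such replicates of the same line.

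Nodal is a secreted ligand of the TGF-β family that signals through activin receptors and an EGF-CFC co-receptor to SMAD2 and SMAD3, which act with SMAD4 and FOXH1 on target genes, among them Nodal itself and the genes of its secreted inhibitors Lefty1 and Lefty2. BMP4 signals through BMP receptors to SMAD1, SMAD5 and SMAD9, whose classical targets are the Id genes and Smad6. The Id proteins bind E proteins and keep them from activating differentiation genes, and in mESCs they act beside LIF to hold back neural differentiation. SMAD6 blocks mainly the BMP branch and SMAD7 blocks both branches, so that each is an inhibitor of the signal that induces it.

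Lefty1 and Lefty2 are neighbours on the same strand of chromosome 1 and are similar enough that a read can match both. In GRCm38, Lefty2 (gene ID 320202) lies at chr1:180893108-180899107 and Lefty1 (gene ID 13590) at chr1:180935022-180938401, with 35.9 kb between them. Their coding sequences have 1107 bases each in GENCODE M21 and are identical at 1017 positions (91.9%). The longest identical run has 140 bases, and of all stretches of 50 bases in the transcript, 17.9% of those in Lefty1 and 11.6% of those in Lefty2 occur in the other gene. How reads that match both genes were counted is not given in the sources used here, so the separate values of Lefty1 and Lefty2 are uncertain to that extent. No stretch of 50 bases was shared among Id1, Id2 and Id3 or between Smad6 and Smad7.

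Promoter windows of RefSeq (GRCm38.p6, 250 bases before to 50 after the start) were at hand for 5 of the 9 genes, Nodal, Bmp4, Smad6, Id2 and Id3. They were searched on both strands for GGCGCC, a GC-rich SMAD site, CAGAC, the SMAD box, and AATNCACA, a FOXH1 site. The letters GGCGCC occurred 1 time in the window of Id2 and CAGAC occurred 2 times in that of Id3, while Nodal, Bmp4 and Smad6 held none of the 3. Over 32851 promoter windows the shares with a match were 11.9% for GGCGCC, 49.6% for CAGAC and 3.6% for AATNCACA, and a match describes only the letters. The 250 bases upstream of Id2 (chr12:25096093-25096342, minus strand) and Id3 (chr4:136143572-136143821, plus strand) are shown, with matches on either strand in capitals, because Id2 fell in Rsf1Δ, BptfΔ and Acf1Δ cells while Id3 did not pass the test in the first pair of these lines and rose in Acf1Δ.
Id2: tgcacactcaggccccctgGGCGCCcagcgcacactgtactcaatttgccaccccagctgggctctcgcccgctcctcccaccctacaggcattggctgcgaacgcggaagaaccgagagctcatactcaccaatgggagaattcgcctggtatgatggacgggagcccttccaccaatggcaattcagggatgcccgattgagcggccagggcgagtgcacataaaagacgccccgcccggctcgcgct
Id3: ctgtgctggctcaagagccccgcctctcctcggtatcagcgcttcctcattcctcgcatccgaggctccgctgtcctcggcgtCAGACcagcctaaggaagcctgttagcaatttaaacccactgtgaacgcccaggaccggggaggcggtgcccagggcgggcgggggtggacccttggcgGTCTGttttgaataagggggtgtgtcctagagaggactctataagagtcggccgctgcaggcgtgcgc

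Libraries held 13.4 to 36.7 M (mega) counts, with a median of 25.0 M. Of the targeted genes, Rsf1 (log2 fold change -2.26), Baz1b (-2.40), Bptf (-1.97) and Baz1a (-1.72) were lower in their lines, Baz2a was at -0.26 in Tip5Δ, and Cecr2 was at 0.37, higher and not lower, in the libraries labelled Cecr2Δ, which are called by their label throughout. A change in mRNA is not needed for a protein to be lost. The study checked its clones for protein by western blot and for the deletion by DNA sequencing, neither of which is in these files. The losses of mRNA were not all limited to the line's own gene, since Baz1a was also lower in BptfΔ (-1.74), WstfΔ (-0.83), Rsf1Δ (-0.64) and the Cecr2Δ label (-0.47), and Cecr2 in BptfΔ (-1.56). In Acf1Δ, Rsf1 (-0.54), Baz2a (-0.42) and Bptf (-0.39) were lower as well. The mESC identity of the cells was read from Pou5f1, Sox2, Nanog, Zfp42 and Esrrb, whose summed level was 2410 to 3510 CPM in WT libraries and 2880 to 3870 CPM in the lines. Within batches the sum was higher in Rsf1Δ (3240 to 3250 CPM) and WstfΔ (3450 to 3490) than in their WT (2410 to 2490), in BptfΔ (3640 to 3650 against 2490 to 2560), in Acf1Δ (3510 to 3630 against 2940 to 3130) and in the Cecr2Δ label (3670 to 3870 against 3230 to 3510). All 5 markers rose in Rsf1Δ (7.45% of all genes) and WstfΔ (16.4%), 4 in BptfΔ (21.4%), 3 in the Cecr2Δ label (9.52%) and none in Tip5Δ (2.84%). Esrrb was a DEG in BptfΔ (1.19), where Nanog rose by 0.96. In Acf1Δ Pou5f1 (0.72) and Zfp42 (0.28) rose (15.1%), Sox2 (-0.35) and Nanog (-0.18) fell (16.7%) and Esrrb did not pass (-0.06). The part of these differences in the changes of the 9 genes was not tested. The 4 libraries of batch C carried 3290 to 4820 CPM of Rpph1, an RNA without a poly(A) tail, against at most 3.39 CPM elsewhere, in WT and BptfΔ cells alike.

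Levels are given as normalized CPM, the counts of a gene relative to the TMM-scaled total of its library, and fold changes as log2 values with their standard error (SE) from the edgeR quasi-likelihood fit over all 24 libraries with terms for batch and genotype. A gene is said to rise or fall where its adjusted p was under 0.01, and is called a differentially expressed gene (DEG) where it also changed more than 2-fold. In 54 comparisons (9 genes in 6 lines), 21 were higher, 17 lower and 16 neither, and 16 were DEGs. In Rsf1Δ cells 3 of the 9 genes were DEGs against 5.91% of all 15682 genes tested, with 2 higher (7.45% of all genes) and 3 lower (13.1%). WstfΔ had 5 DEGs (10.4% of all genes), with 5 higher (16.4%) and 2 lower (18.3%). In Tip5Δ none was a DEG (2.72%), with 2 higher (2.84%) and 2 lower (6.23%), and DESeq2 also gave 0 DEGs, while 6 of the 9 had an unadjusted p under 0.05. BptfΔ had 4 DEGs (13.8%), with 4 higher (21.4%) and 3 lower (20.2%). The libraries labelled Cecr2Δ had 1 DEG (3.11%), with 4 higher (9.52%) and 4 lower (8.83%). In Acf1Δ cells 3 were DEGs (4.45%), with 4 higher (15.1%) and 3 lower (16.7%).

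The median size of the log2 fold change over the 9 genes was 1.26 in WstfΔ, 0.76 in BptfΔ, 0.68 for the Cecr2Δ label, 0.44 in Acf1Δ, 0.33 in Rsf1Δ and 0.23 in Tip5Δ. Over all genes tested it was 0.31, 0.37, 0.16, 0.27, 0.21 and 0.16 in the same order. In bulk RNA, fewer cells that express a gene and less of its RNA per cell cannot be told apart.

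**Figure D1:**
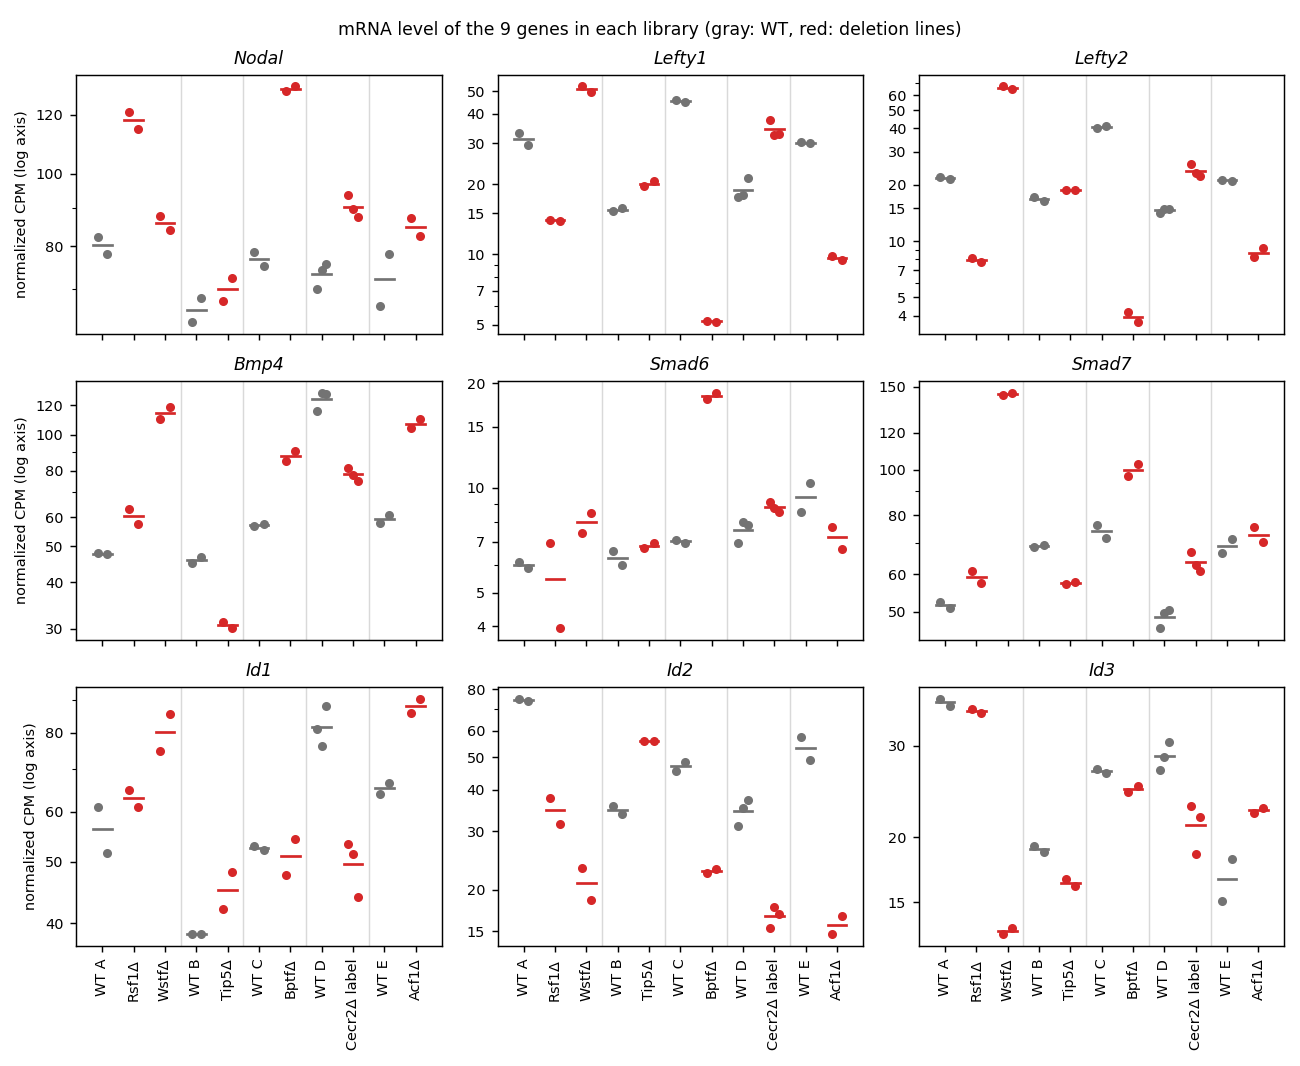
Normalized CPM (log axis) of the 9 genes in each of the 24 libraries, with a point per library and a bar at the group mean, WT in gray and deletion lines in red, separated by batch. Both Lefty genes lie below every WT library in Rsf1Δ, BptfΔ and Acf1Δ, Id2 does so in WstfΔ, BptfΔ, Acf1Δ and the libraries labelled Cecr2Δ, and Smad6 stands above every WT library in BptfΔ.

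Nodal (gene ID 18119, chr10:61417972-61425338), the ligand, rose in 4 lines and most in BptfΔ. WT libraries of batch C had 78.6 and 75.3 CPM and those of BptfΔ 129 and 131 CPM, a log2 fold change of 0.76 (SE 0.072, n = 2 and 2, adjusted p = 1.18e-09). In batch A, the WT libraries had 82.2 and 78.1 CPM and Rsf1Δ 121 and 115 CPM, a change of 0.56 (SE 0.07, adjusted p = 4.83e-07). The groups were apart in both batches. The libraries labelled Cecr2Δ, at 93.6, 89.6 and 87.5 CPM, all lay above their WT at 70.0, 74.3 and 75.7 CPM (0.30, SE 0.057, n = 3 and 3, adjusted p = 0.000201). In Acf1Δ, 87.3 and 82.4 CPM stood against 66.5 and 78.1 CPM in WT (0.23, SE 0.07, adjusted p = 0.0093), a call that was lost when the WT library at 66.5 CPM was left out (0.12, adjusted p = 0.25), and also without either Acf1Δ library (adjusted p = 0.0645 and 0.0108). WstfΔ, at 87.8 and 84.1 CPM, did not pass the test (0.10, SE 0.072, adjusted p = 0.268), nor did Tip5Δ at 67.6 and 72.6 CPM against 63.3 and 68.2 CPM in WT (0.09, SE 0.071, adjusted p = 0.431). Every library of the 5 lines other than Tip5Δ was above all 11 WT libraries. The rise in BptfΔ exceeded that in Acf1Δ by 0.53 (SE 0.1, adjusted p = 8.8e-05) but not that in Rsf1Δ beyond error (0.20 apart, SE 0.1, adjusted p = 0.113). By the same contrasts, Acf1Δ did not differ beyond error from WstfΔ (adjusted p = 0.304) or Tip5Δ (adjusted p = 0.302). The same held for the Cecr2Δ label against WstfΔ (adjusted p = 0.0985) and Tip5Δ (adjusted p = 0.137).

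Lefty1, a secreted inhibitor that keeps Nodal from its receptors, fell most in BptfΔ. Its 2 libraries had 5.21 and 5.14 CPM against 45.9 and 44.9 CPM in WT of batch C, 8.77-fold less (log2 fold change -3.13, SE 0.11, adjusted p = 4e-18). In Acf1Δ 9.85 and 9.42 CPM stood against 30.2 and 30.1 CPM (-1.65, SE 0.095, adjusted p = 6.34e-13), and in Rsf1Δ 14.1 and 13.9 CPM against 33.0 and 29.5 CPM (-1.16, SE 0.093, adjusted p = 1.55e-10). In these 3 lines every library was below all 11 WT libraries. WstfΔ went the other way, at 52.5 and 49.5 CPM, above every WT library (0.71, SE 0.087, adjusted p = 1.86e-07). The libraries labelled Cecr2Δ also had more, with 37.5, 32.6 and 32.8 CPM against 17.7, 18 and 21.2 CPM (0.86, SE 0.07, adjusted p = 3.04e-10). The rise in Tip5Δ, 19.6 and 20.6 CPM against 15.3 and 15.8 CPM, was small (0.37, SE 0.095, adjusted p = 0.00728) and missed the threshold when any of the 4 libraries of these 2 groups was left out (adjusted p = 0.0274 to 0.0877) and with library size as the only scaling (adjusted p = 0.0189).

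Lefty2, the second inhibitor of the pair, fell in the same 3 lines. BptfΔ had 4.19 and 3.70 CPM against 40.3 and 41.2 CPM in WT (-3.37, SE 0.11, adjusted p = 1.74e-19), 10.3-fold less. Rsf1Δ had 8.12 and 7.69 CPM against 22.1 and 21.4 CPM (-1.46, SE 0.091, adjusted p = 1.19e-12), and Acf1Δ 8.21 and 9.14 CPM against 21.3 and 21.0 CPM (-1.28, SE 0.088, adjusted p = 1.66e-11). No library of these lines reached the lowest WT library. In WstfΔ, 67.1 and 65.0 CPM were 3.03-fold above the WT of batch A (1.60, SE 0.078, adjusted p = 3.6e-15) and above all other WT libraries. The libraries labelled Cecr2Δ rose to 25.8, 23.2 and 22.4 CPM from 14.2, 14.9 and 14.9 CPM (0.70, SE 0.065, adjusted p = 3.28e-09). Tip5Δ, with 18.7 CPM in each library against 17.3 and 16.3 CPM, did not pass the test (0.15, SE 0.084, adjusted p = 0.248).

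The Lefty genes followed each other closely over the 24 libraries (Pearson r of log2 CPM 0.953), points that share batches. The part of reads that match both genes in this was not tested. Per kilobase, Lefty2 was below Lefty1 in WT, with a log2 ratio of Lefty2 to Lefty1 of -0.87 ± 0.25 (SD, n = 11). It was -0.20 ± 0.028 in WstfΔ, where the WT of its batch had -1.09 ± 0.08 and the range over all WT libraries was -1.15 to -0.39, and -1.39 ± 0.04 in Rsf1Δ (n = 2 each). The rise of Lefty2 in WstfΔ was thus larger than that of Lefty1, a difference between genes that was not tested. Nodal mRNA was higher in each of the lines where Lefty mRNA fell (Rsf1Δ, BptfΔ and Acf1Δ, in the last of which the call of Nodal rested on single libraries), and also in the Cecr2Δ label, where both Lefty genes rose. Over all libraries Nodal had r = -0.463 with Lefty1 and -0.547 with Lefty2, given as a description of points that share batches.

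**Figure D2:**
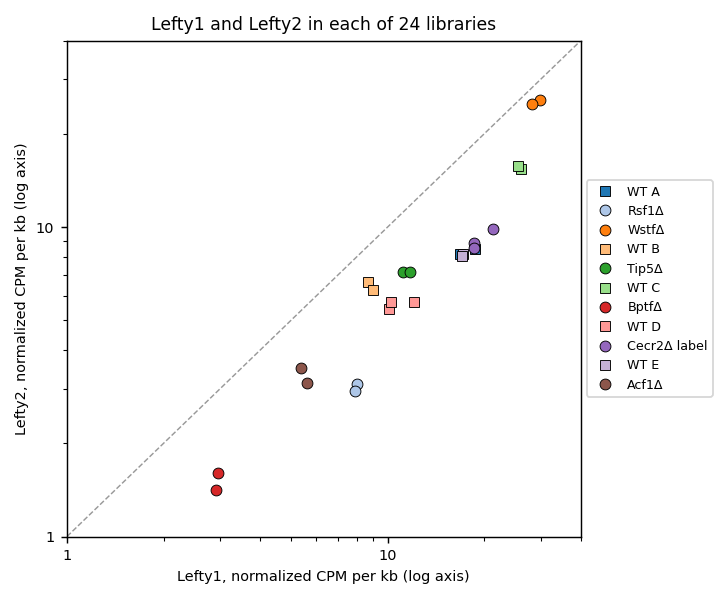
Lefty2 against Lefty1 in normalized CPM per kilobase (both axes log), with a point for each of the 24 libraries, squares for WT and circles for the lines, and equal levels on the dashed line. The libraries run along a band below that line, BptfΔ at its low end and WstfΔ at its high end and nearest to the line.

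Smad7 (gene ID 17131, chr18:75367365-75395935), which encodes the inhibitor of both branches, had its largest change in WstfΔ. There, 144 and 146 CPM stood against 52.5 and 50.9 CPM in WT, 2.80-fold more (1.49, SE 0.068, adjusted p = 7.71e-16). BptfΔ, at 96.9 and 103 CPM against 76.5 and 71.8 CPM, rose by less (0.43, SE 0.067, adjusted p = 5.19e-06), as did the libraries labelled Cecr2Δ, at 66.9, 62.9 and 61.0 CPM against 46.1, 49.7 and 50.4 CPM (0.38, SE 0.054, adjusted p = 3.88e-06). WstfΔ and BptfΔ lay above all 11 WT libraries. In Tip5Δ, 57.2 and 57.9 CPM against 68.5 and 69.1 CPM were lower (-0.26, SE 0.067, adjusted p = 0.00815), but leaving out any of these 4 libraries lost the call (adjusted p = 0.0442 to 0.0746), as did testing without a filter (adjusted p = 0.0223). Rsf1Δ at 61.0 and 57.4 CPM (0.20, SE 0.068, adjusted p = 0.029) and Acf1Δ at 75.5 and 70.2 CPM against 66.5 and 71.3 CPM (0.08, SE 0.066, adjusted p = 0.344) did not pass.

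Smad6 (gene ID 17130, chr9:63953076-64022085), the inhibitor of the BMP branch, was the lowest of the 9 genes per kilobase in WT and changed in BptfΔ. Its 2 libraries had 18 and 18.8 CPM against 7.09 and 6.94 CPM in WT, 2.63-fold more and above every other library (1.39, SE 0.16, adjusted p = 2.9e-08). In the other 5 lines Smad6 lay between 3.95 and 9.10 CPM and did not pass the test, with log2 fold changes of -0.39 (SE 0.15, adjusted p = 0.0388) in Acf1Δ to 0.41 (SE 0.18, adjusted p = 0.062) in WstfΔ. The Rsf1Δ libraries differed from each other, at 6.96 and 3.95 CPM, on either side of their WT at 6.10 and 5.90 CPM.

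Bmp4 (gene ID 12159, chr14:46383525-46390669), the BMP ligand, changed in all 6 lines, up in 4 and down in 2. WstfΔ had 110 and 119 CPM against 47.9 and 47.7 CPM (1.26, SE 0.072, adjusted p = 7.9e-14) and was the only line in which it was a DEG. Acf1Δ had 104 and 110 CPM against 57.9 and 60.8 CPM (0.85, SE 0.069, adjusted p = 3.95e-10), and BptfΔ 84.8 and 90.4 CPM against 56.7 and 57.4 CPM (0.62, SE 0.072, adjusted p = 5.19e-08). The rise in Rsf1Δ, 63.0 and 57.4 CPM, was 0.33 (SE 0.072, adjusted p = 0.000728), and it was not called without the library at 63.0 CPM (0.27, adjusted p = 0.0273). Bmp4 fell in the libraries labelled Cecr2Δ, from 116, 130 and 129 CPM to 81.6, 78.1 and 75.0 CPM (-0.68, SE 0.055, adjusted p = 2.65e-10). In Tip5Δ it fell from 45.2 and 46.7 CPM to 31.3 and 30.1 CPM, below all WT libraries (-0.58, SE 0.075, adjusted p = 1.57e-06). No library overlapped with its own WT group in any line. The WT of batch D stood far above the other WT batches, so that the lower Cecr2Δ-labelled libraries were still above the WT of batches A, B, C and E. Of the annotated genes that overlap Bmp4, Gm15217 reached at most 3.77 CPM.

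Id1 (gene ID 15901, chr2:152736251-152737410), an inhibitor of E proteins, was a DEG in no line. It rose in WstfΔ, 74.9 and 85.6 CPM against 61.1 and 51.6 CPM (0.51, SE 0.097, adjusted p = 9.67e-05), and in Acf1Δ, 86.0 and 90.5 CPM against 64.1 and 66.7 CPM (0.43, SE 0.092, adjusted p = 0.000449). It fell in the libraries labelled Cecr2Δ, 53.3, 51.5 and 44.0 CPM against 81.0, 76.1 and 88.0 CPM (-0.72, SE 0.076, adjusted p = 2.87e-08). In each of these 3 lines Bmp4 had changed in the same direction. Bmp4 also changed in Rsf1Δ (0.33), Tip5Δ (-0.58) and BptfΔ (0.62), where Id1 did not pass. Id1 did not pass in Rsf1Δ at 65.0 and 61.1 CPM (0.16, SE 0.095), in Tip5Δ at 42.1 and 48.2 CPM against 38.4 and 38.5 CPM (0.23, SE 0.098) or in BptfΔ at 47.7 and 54.4 CPM against 52.9 and 52.2 CPM (-0.04, SE 0.1), with adjusted p of 0.215, 0.119 and 0.756. Bmp4 and Id1 had r = 0.744 over the 24 libraries, more than Bmp4 had with Id2 (-0.652) or Id3 (0.0438). These points share batches, and among WT batches D was the highest and B the lowest for both Bmp4 and Id1.

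Id2 (gene ID 15902, chr12:25093799-25096092) fell in 5 lines and was a DEG in each of them. WT libraries of batch A had 75.0 and 73.9 CPM, WstfΔ 23.3 and 18.7 CPM (-1.83, SE 0.11, adjusted p = 1.88e-13) and Rsf1Δ 37.8 and 31.5 CPM (-1.10, SE 0.097, adjusted p = 8.93e-10). Acf1Δ fell to 14.7 and 16.7 CPM from 57.4 and 49.1 CPM (-1.76, SE 0.1, adjusted p = 8.6e-13). In BptfΔ, 22.5 and 23.1 CPM stood against 45.5 and 48.4 CPM (-1.04, SE 0.11, adjusted p = 6.43e-09). The libraries labelled Cecr2Δ had 15.4, 17.7 and 16.9 CPM against 31.2, 35.2 and 37.2 CPM (-1.05, SE 0.084, adjusted p = 2.02e-10). All of these groups were apart from their WT, and those of WstfΔ, BptfΔ, Acf1Δ and the Cecr2Δ label were below all 11 WT libraries. Tip5Δ alone had more, 56.0 and 55.9 CPM against 35.8 and 33.8 CPM (0.68, SE 0.097, adjusted p = 7.86e-06). That change differed from the change in each of the other 5 lines, by 1.73 to 2.51 on the log2 scale (adjusted p at most 3.53e-10). The 2-fold limit was passed narrowly in 3 of the lines. Id2 was no longer a DEG in the Cecr2Δ label without its library 1 (-1.0 after rounding) or without WT library 3 (-0.99), which left 0 of the 9 genes as DEGs there, nor in BptfΔ without WT library 2 (-1.0) or in Rsf1Δ without its library 2 (-0.98). In each case it still fell, at an adjusted p of at most 8.04e-07.

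Id3 (gene ID 15903, chr4:136143822-136145392) was a DEG in WstfΔ, where 13 and 13.4 CPM stood against 37 and 35.8 CPM (-1.46, SE 0.1, adjusted p = 7.2e-12), below all WT libraries. The libraries labelled Cecr2Δ had less, 23.0, 18.6 and 21.9 CPM against 27.0, 28.6 and 30.6 CPM (-0.44, SE 0.072, adjusted p = 3.06e-05). Acf1Δ had more, 22.3 and 22.8 CPM against 15.1 and 18.2 CPM (0.44, SE 0.094, adjusted p = 0.000485), a call lost without the WT library at 15.1 CPM (0.31, adjusted p = 0.027) and in a fit of batch E alone (0.46, adjusted p = 0.0126). The other 3 lines did not pass. Rsf1Δ had 35.4 and 34.7 CPM (-0.05, SE 0.087, adjusted p = 0.689), BptfΔ 24.5 and 25.1 CPM against 27.1 and 26.6 CPM (-0.11, SE 0.097, adjusted p = 0.336) and Tip5Δ 16.6 and 16.1 CPM against 19.2 and 18.7 CPM (-0.21, SE 0.098, adjusted p = 0.155). By the threshold in each line, the Id genes thus showed 5 patterns. WstfΔ had more Id1 and less Id2 and Id3, Acf1Δ more Id1 and Id3 and less Id2, and the Cecr2Δ-labelled libraries less of all 3. In Rsf1Δ and BptfΔ only Id2 passed the test among the 3 genes, and fell, and in Tip5Δ only Id2 passed, and rose. The contrasts between lines did not separate all of these patterns. Id3 in the Cecr2Δ label did not differ beyond error from Id3 in Tip5Δ (contrast, adjusted p = 0.218). Nor did Id1 in Acf1Δ differ from Id1 in Rsf1Δ (contrast, adjusted p = 0.138).

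**Figure D3:**
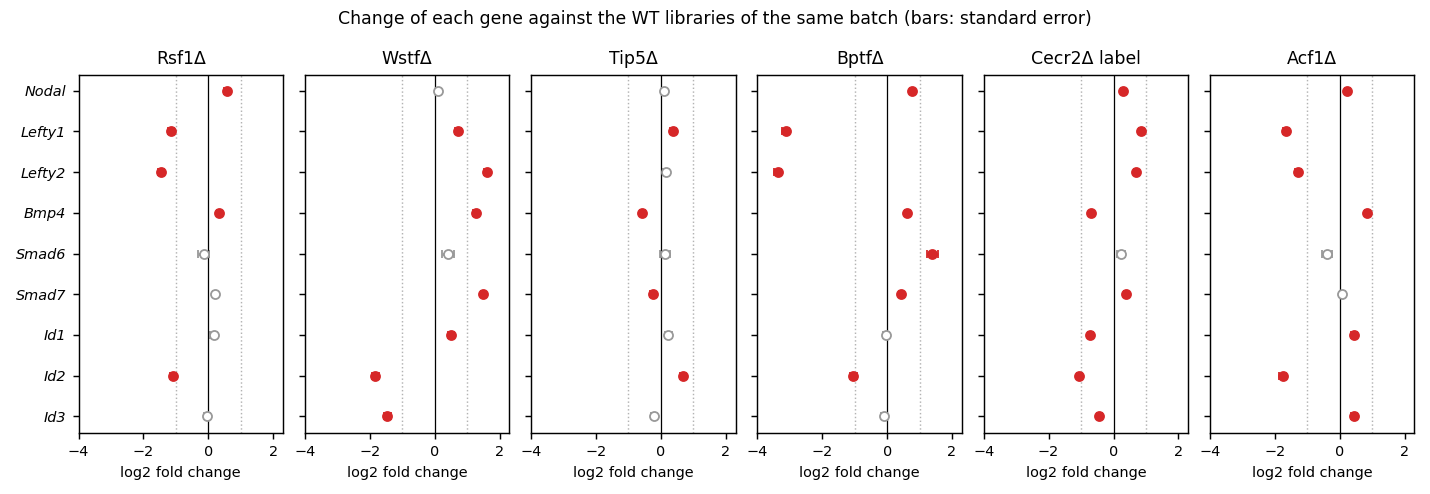
Log2 fold change of each gene against the WT of its batch, a panel per line, with bars for the standard error (often smaller than the point), filled points for adjusted p under 0.01 and dotted lines at a 2-fold change. BptfΔ has the lowest points, Lefty1 at -3.13 and Lefty2 at -3.37, and no gene passes the dotted lines in Tip5Δ.

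The lines were also compared with each other, in 15 pairs, by contrasts of their changes in the same fit, adjusted over all genes in each pair. Lefty2 differed in 14 pairs, Lefty1 in 13, Bmp4 in 12, Id2 and Smad7 in 11, Id3 in 9, Id1 in 8, and Nodal and Smad6 in 6. The share of all genes that differ in each pair was not taken, so these counts have no background beside them. The pair without a difference in Lefty2 was Rsf1Δ and Acf1Δ (-0.18, SE 0.13, adjusted p = 0.335). Id2 did not differ beyond error between WstfΔ and Acf1Δ (-0.07, SE 0.15, adjusted p = 0.748), nor between BptfΔ and the Cecr2Δ label (0.00, SE 0.14, adjusted p = 0.984).

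The same genes also varied among WT libraries, from batch to batch. Over the 11 WT libraries, 8 of the 9 genes differed between batches at an adjusted p under 0.01, beside 69.4% of the 15413 genes tested. The highest batch mean was 2.93 times the lowest for Lefty1, 2.77 times for Lefty2, 2.72 times for Bmp4 and between 1.52 and 2.18 times for the Id genes, Smad6 and Smad7. For Lefty1, Lefty2 and Smad7 the highest batch was C, whose libraries carried 3290 to 4820 CPM of Rpph1. Cultures and the RNA content of the libraries cannot be told apart there. Nodal had the smallest ratio, 1.22 (65.8 to 80.2 CPM, adjusted p = 0.03). Several changes in the lines were therefore smaller than the range of WT: of the 54 comparisons, 10 (18.5%) had all libraries of the line above every WT library and 12 (22.2%) below. Over all genes tested in the 6 lines, these shares were 9.06% and 9.67%. By line, 1 of the 9 genes lay above every WT library in Rsf1Δ (4.62% of all genes) and 2 below (5.75%), 4 above (11.7%) and 2 below (11.6%) in WstfΔ, 0 above (7.8%) and 1 below (7.52%) in Tip5Δ, 3 above (20%) and 3 below (20.6%) in BptfΔ, 1 above (5.17%) and 1 below (6.29%) in the Cecr2Δ label, and 1 above (5.03%) and 3 below (6.21%) in Acf1Δ. Per kilobase of annotated length, Id1 was highest in WT, at 52.6 ± 14.0 CPM per kb (SD, n = 11), followed by Nodal (35.2 ± 2.81), Bmp4 (32.2 ± 15.3), Id2 (24.1 ± 7.88), Id3 (16.0 ± 4.48), Lefty1 (15.6 ± 6.24), Smad7 (13.5 ± 2.48), Lefty2 (8.53 ± 3.67) and Smad6 (2.27 ± 0.409). Among neighbours in that order, Id1 and Nodal, and Lefty2 and Smad6, were further apart than their SDs summed, and the others were not.

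Of 50 other genes of the Nodal and BMP pathways, 47 passed the filter, and Acvr1c, Cer1 and Atoh8 did not. In Rsf1Δ 7 were DEGs (14.9%, against 5.91% of all genes), with 2 higher (7.45% of all genes) and 12 lower (13.1%), and in WstfΔ 13 (27.7% against 10.4%), with 13 higher (16.4%) and 12 lower (18.3%). Tip5Δ had 6 (12.8% against 2.72%), with 3 higher (2.84%) and 7 lower (6.23%), and BptfΔ 9 (19.1% against 13.8%), with 23 higher (21.4%) and 6 lower (20.2%). The Cecr2Δ label had 7 (14.9% against 3.11%), with 7 higher (9.52%) and 10 lower (8.83%). Acf1Δ had 3 (6.38% against 4.45%), with 5 higher (15.1%) and 13 lower (16.7%), and leaving out any 1 of its 4 libraries left 1 or 2 of these DEGs, 1 without Acf1Δ library 1. The median log2 fold change of the 47 was between -0.14 and 0.27, where that of all genes was between -0.03 and 0.01. Genes that the naming rule did not set and that are named below by role were chosen after their values were seen.

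Among Nodal-branch ligands, Inhbb, an activin subunit, rose in 5 of 6 lines and was a DEG in WstfΔ, where it went from 118 ± 1.06 to 298 ± 1.79 CPM (SD, n = 2; 1.34, SE 0.062, adjusted p = 1.07e-15). Gdf3, a ligand close to Nodal in function, rose in BptfΔ (0.70, SE 0.07, adjusted p = 3.13e-09) and Acf1Δ (0.32, SE 0.069, adjusted p = 0.00053). Inhba had 1 and 0 counts in Acf1Δ against 11 and 11 in WT (adjusted p = 0.00221), too few for a fold. Cfc1, an EGF-CFC co-receptor, had 1 and 0 counts in WstfΔ against 15 and 8 (adjusted p = 0.00317), and was higher in the Cecr2Δ label, with 8, 7 and 15 counts against 4, 1 and 3 (adjusted p = 0.0097). Both calls were lost when single libraries were left out (adjusted p of up to 0.0596 and 0.0735), as was that of Inhba without Acf1Δ library 2 (adjusted p = 0.0372) and that of Gdf3 in Acf1Δ without WT library 2 (adjusted p = 0.0106) or Acf1Δ library 2 (adjusted p = 0.0139). The abundant co-receptor Tdgf1 rose in 4 lines and fell in BptfΔ (-0.34, SE 0.057, adjusted p = 1.51e-05). Its rises in Rsf1Δ (0.22) and the Cecr2Δ label (0.17) were not called when single libraries were left out. The change was then as low as 0.18 in Rsf1Δ and 0.14 in the Cecr2Δ label. The type I receptor gene Acvr1b was a DEG in WstfΔ (1.12, SE 0.081, adjusted p = 1.02e-11) and BptfΔ (1.34, SE 0.082, adjusted p = 1.97e-13).

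Of the Nodal mediators, Foxh1, the DNA-binding partner of SMAD2, fell in Rsf1Δ (-0.82, SE 0.11, adjusted p = 9.28e-07), WstfΔ (-1.06, SE 0.12, adjusted p = 3.49e-08) and the libraries labelled Cecr2Δ (-0.40, SE 0.082, adjusted p = 0.000549). Smad3 fell in Rsf1Δ (-0.64, SE 0.096, adjusted p = 7.02e-06) and Acf1Δ (-0.46, SE 0.091, adjusted p = 0.000192) and rose in WstfΔ, BptfΔ and the Cecr2Δ label. Fst, whose product follistatin traps activin, fell in 5 lines, by 3.23 in WstfΔ (adjusted p = 8.07e-17) and by 1.58 in Rsf1Δ (225 and 202 counts against 692 and 597, SE 0.099, adjusted p = 1.19e-12), and rose in BptfΔ (0.39, SE 0.1, adjusted p = 0.0029), a call lost without any of the 4 libraries (adjusted p = 0.0107 to 0.0299). The rise of Smad3 was not called in WstfΔ without WT library 2 (adjusted p = 0.0123) or WstfΔ library 1 (adjusted p = 0.0107), nor in the Cecr2Δ label without 4 of its 6 libraries in turn (adjusted p of up to 0.0523).

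On the BMP side, Bmp2 fell in 5 lines, all but Acf1Δ. Its changes were -3.98 in WstfΔ (7 and 7 counts against 200 and 191, SE 0.31, adjusted p = 5.78e-11), -3.45 in BptfΔ (3 and 5 against 52 and 43, SE 0.43, adjusted p = 1.68e-07), -2.74 in Tip5Δ (26 and 16 against 162 and 153, SE 0.25, adjusted p = 3.92e-09), -2.51 in the Cecr2Δ label (6, 11 and 19 against 80, 57 and 66, SE 0.26, adjusted p = 2.02e-08) and -1.84 in Rsf1Δ (68 and 40 against 200 and 191, SE 0.21, adjusted p = 6.98e-08). Bmp2 thus fell also where Bmp4 rose, in Rsf1Δ, WstfΔ and BptfΔ. Bmp7 was a DEG in WstfΔ, where it rose by 2.35 (SE 0.23, adjusted p = 2.52e-09), in BptfΔ (1.39, SE 0.29, adjusted p = 0.000252) and in Acf1Δ, where it fell by 1.02 (43 and 76 counts against 127 and 110, SE 0.22, adjusted p = 0.00044). Without BptfΔ library 1 the change in BptfΔ was 0.99 (adjusted p = 0.0217), and without Acf1Δ library 1 that in Acf1Δ was -0.70 (adjusted p = 0.0196), neither of them called. Without WT library 1 of batch E the latter was under 2-fold (-0.92).

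Of the 9 BMP antagonists listed, Nog, whose secreted product binds the ligands, fell in 5 lines, the same lines in which Bmp2 fell. The list did not move as 1 group, and Chrd rose in BptfΔ (0.78) and Acf1Δ (0.83). In BptfΔ 3 of the 9 rose (21.4% of all genes) and 2 fell (20.2%). In WstfΔ 1 rose (16.4%) and 2 fell (18.3%), and in Acf1Δ 1 rose (15.1%) and 2 fell (16.7%). In Rsf1Δ (13.1%), Tip5Δ (6.23%) and the Cecr2Δ label (8.83%) 2 fell and 0 rose. Nog, which encodes noggin, fell by 2.97 in Tip5Δ (22 and 16 counts against 159 and 175, SE 0.24, adjusted p = 3.3e-10) and by 1.88 in the Cecr2Δ label (11, 23 and 19 against 74, 47 and 71, SE 0.23, adjusted p = 3.08e-07), and was also a DEG in Rsf1Δ, WstfΔ and BptfΔ.

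Further BMP targets and the partners of the Id proteins moved in their own ways. Id4, the remaining Id gene, rose by 2.05 in BptfΔ (SE 0.2, adjusted p = 2.44e-09) and fell by 1.08 in Acf1Δ (65 and 78 counts against 139 and 157, SE 0.2, adjusted p = 0.000104), where it was just under 2-fold (-0.99) without WT library 2 or Acf1Δ library 1. It was also a DEG, lower, in Rsf1Δ (-1.0 after rounding, 39 and 48 counts against 94 and 82, SE 0.23, adjusted p = 0.00161), a call lost without WT library 1 (adjusted p = 0.0169) or Rsf1Δ library 1 (adjusted p = 0.0271). Msx2 was a DEG, lower, in WstfΔ (-1.42), Tip5Δ (-1.62) and the Cecr2Δ label (-1.07), with adjusted p of 4.41e-06, 8.22e-07 and 2.54e-05. In the Cecr2Δ label it was under 2-fold (-0.94) without WT library 3. The E-protein genes Tcf3, Tcf4 and Tcf12, whose products the Id proteins bind, rose in 3 of 3 cases in WstfΔ (16.4% of all genes) and in 2 of 3 in BptfΔ (21.4%), and 2 of 3 fell in Acf1Δ (16.7%), none of them 2-fold. The calls of Tcf12 in WstfΔ and Acf1Δ were lost when single libraries were left out (adjusted p of up to 0.0448 and 0.124). The receptor-activated SMAD genes of the BMP branch (Smad1, Smad5 and Smad9) were DEGs in no line. Smad1 and Smad5 rose in BptfΔ (0.34 and 0.50, adjusted p = 0.00318 and 6.38e-07), and in the Cecr2Δ label Smad5 rose (0.24, adjusted p = 0.00106) while Smad1 fell (-0.27, adjusted p = 0.007). The rise of Smad5 in the Cecr2Δ label was not called without WT library 3 (0.21, adjusted p = 0.0104). Smad1 also fell in Acf1Δ (-0.29, adjusted p = 0.00892), and each of its 3 calls was lost when single libraries were left out (adjusted p of up to 0.0757, 0.0511 and 0.127).

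**Figure D4:**
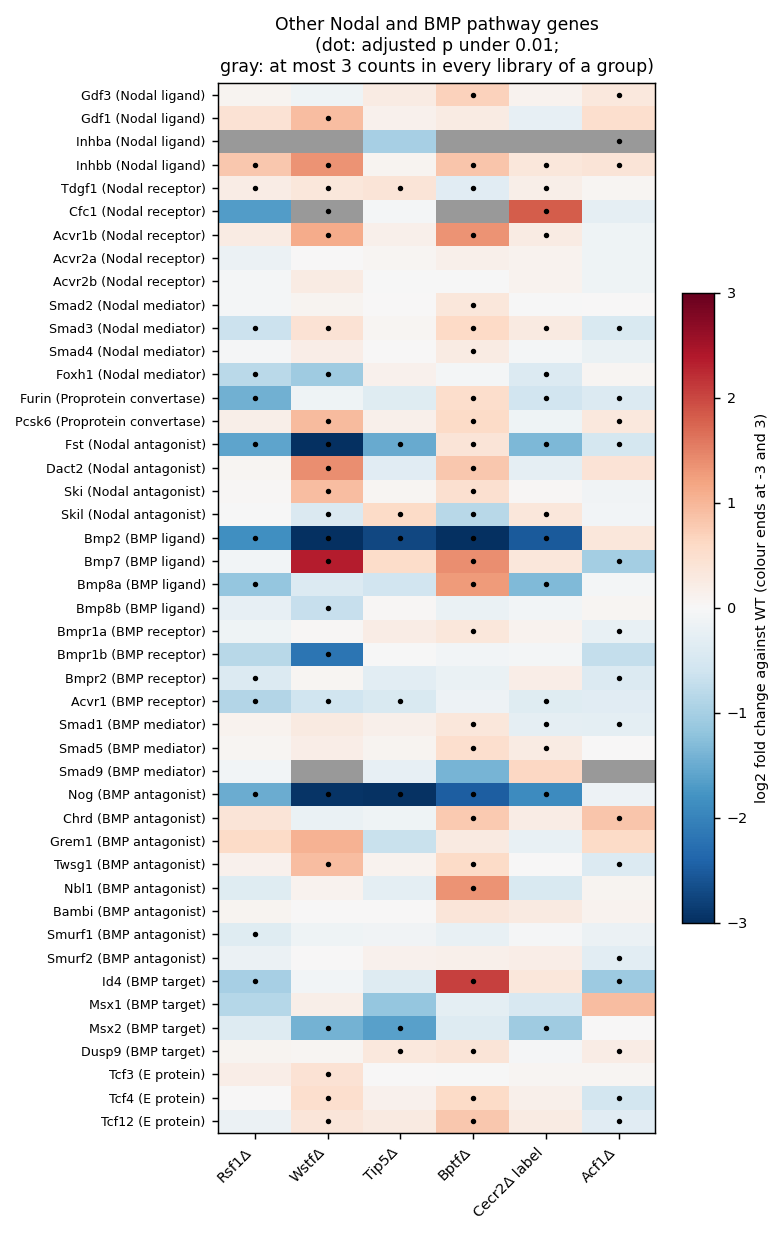
Log2 fold change of 45 of the 47 other pathway genes tested (rows, with their role) in the 6 lines (columns), with a dot where the adjusted p was under 0.01 and gray where every library of the line or of its WT had at most 3 counts. Bmp2 and Nog are blue with a dot in every line but Acf1Δ, where neither has a dot, while BptfΔ has the most genes that rose, 23.

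Markers of other cell types moved with some of these genes. The 6 primitive endoderm markers (Gata4, Gata6, Sox17, Pdgfra, Dab2 and Foxa2) fell, 6 of 6, in the 5 lines in which Bmp2 fell, and in Acf1Δ 3 rose (15.1% of all genes) and 1 fell. The share of all genes that fell was 13.1% in Rsf1Δ, 18.3% in WstfΔ, 6.23% in Tip5Δ, 20.2% in BptfΔ, 8.83% in the Cecr2Δ label and 16.7% in Acf1Δ, and the same shares stand beside the counts of the other markers that fell. Their summed level was 298 to 307 CPM in WT of batch A, 120 to 128 in Rsf1Δ and 119 to 122 in WstfΔ. It was 300 to 320 in WT of batch B and 65.6 to 71.8 in Tip5Δ, 135 to 142 in WT of batch C and 9.01 to 9.22 in BptfΔ, 85.2 to 97.5 in WT of batch D and 24 to 28.5 in the Cecr2Δ label, and 221 to 229 in WT of batch E and 246 to 281 in Acf1Δ. Sox17 was the lowest of them in BptfΔ, at 0.207 ± 0.13 CPM. Both Lefty genes were lower together with this sum in Rsf1Δ and BptfΔ. They fell in Acf1Δ, where the sum was higher, and rose in WstfΔ and the Cecr2Δ label, where it was lower. Id2 fell together with the sum in Rsf1Δ, WstfΔ, BptfΔ and the Cecr2Δ label, fell in Acf1Δ and rose in Tip5Δ, where the sum was lower. Bmp2 and Nog moved with the markers in 5 lines. The part of such cells in these changes was not tested.

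Trophectoderm markers (Cdx2, Gata3, Tfap2c and Krt7, 4 of 5 tested) also had a lower sum in Rsf1Δ (39.9 to 40 CPM against 72.8 to 74.4), WstfΔ (33.0 to 34.5), Tip5Δ (49.4 to 49.5 against 61.3 to 64.3), BptfΔ (17.7 to 19.4 against 48.3 to 48.4) and Acf1Δ (15.9 to 17.5 against 55.5 to 57.5), most of it Tfap2c. In the Cecr2Δ label the sum was higher (50.7 to 54.9 against 37.8 to 47.5), but only Tfap2c rose there (0.54, adjusted p = 2.5e-07), while Gata3 (-2.99, adjusted p = 1.54e-08) and Krt7 (-2.33, adjusted p = 2.9e-09) fell and Cdx2 did not pass (-1.08, adjusted p = 0.0127). At least 2 of these markers fell in each of the 5 lines in which Id2 fell, and 1 in Tip5Δ.

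Primitive streak markers, among them Eomes, summed to 8.56 to 9.18 CPM in WstfΔ against 4.95 to 6.16 in its WT and to 4.07 to 7.29 CPM in the remaining libraries. In WstfΔ, where 16.4% of all genes rose, only Eomes passed the test, and rose (1.05, adjusted p = 5.84e-05), among the 4 of 5 markers tested. In 2 lines in which both Lefty genes fell, 1 of these markers was a DEG, lower, T in BptfΔ (mean 0.0588 CPM against 1.38, adjusted p = 3.08e-06) and Gsc in Acf1Δ (0.0539 CPM against 0.369, adjusted p = 0.00463), levels of too few counts for a fold. DEGs made up 13.8% of all genes in BptfΔ and 4.45% in Acf1Δ. The neuroectoderm sum, of which Sox1 and Pax6 were tested, was 18.3 to 19.6 CPM in BptfΔ against 8.93 to 9.4, 13 to 14.6 in WstfΔ and 12.2 to 12.4 in Rsf1Δ against 9.21 to 11.1, 15.1 to 19.0 in Tip5Δ against 12.0 to 12.8, 9.57 to 10.5 in the Cecr2Δ label against 10.9 to 11.6, and 12.5 to 13.4 in Acf1Δ against 18.7 to 21.4. Sox1 was a DEG, higher, in BptfΔ (2.26) and WstfΔ (1.87), where Pax6 was a DEG, lower (-1.51 and -2.02). Of 4 fibroblast markers tested, 3 fell in every line but the Cecr2Δ label, where none passed the test, and 1 rose in WstfΔ. In these 5 lines 6.23% (Tip5Δ) to 20.2% (BptfΔ) of all genes fell, and 16.4% rose in WstfΔ. Their sum was 2.54 to 3.17 CPM in BptfΔ against 7.94 to 8.56, 9.19 to 10.1 in Rsf1Δ and 17.3 to 19.8 in WstfΔ against 18.3 to 19.1, 17.6 to 22.3 in Tip5Δ against 31.8 to 32.0, 12.9 in Acf1Δ against 24.4 to 24.6, and 15.7 to 15.9 in the Cecr2Δ label against 16.4 to 18.3. The part of any of these cells in the changes of the 9 genes was not tested.

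The genes most like each of the 9 in their pattern over the 24 libraries were found by Pearson r of log2 CPM, which batches and lines shape together. Lefty1 and Lefty2 were each most like the other (r = 0.953), followed by Arhgap30 (0.896 and 0.877). Nodal was most like A930007A09Rik (0.918) and Tbc1d10b (0.865), Smad7 like Atp9a (0.906) and Pald1 (0.883), and Smad6 like St8sia1 (0.939), a ganglioside synthase gene, and Zbtb44 (0.897). Bmp4 was most like Pcolce (0.929), a procollagen-processing enhancer gene, and E2f2 (0.928), an E2F factor gene. Id1 was most like Ccdc9 (0.868) and Vim (0.792), Id2 like Efemp1 (0.911) and Elf1 (0.887), and Id3 like Ldah (0.872) and Snx11 (0.869). Apart from the Lefty pair, none of the 9 had another of the 9 among its 2 most similar genes.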

How the data were processed

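RNA from 24 mESC libraries was sequenced, and the authors aligned reads to mm10 with QuasR, allowing for splicing. They deposited raw counts, not normalized, for the genes of UCSC knownGene. The submitters' processing notes name HISAT2 and bcl2fastq 2.17. The deposited table also holds gene widths. Of its 24594 gene IDs, 24570 matched a RefSeq symbol. Replicate libraries differed by more than counting noise (chi-square per gene of 1.38 to 20.4). Options for strand and multiple matches are not given in the sources used here.

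Counts were analysed with R 4.3.3 and edgeR 4.0.16: filterByExpr by genotype (15682 genes), TMM scaling, and a quasi-likelihood fit (legacy form) of batch and genotype over all libraries, with Benjamini-Hochberg adjustment. SE was taken as the size of a log2 fold change over the root of its F. Depth was 13.4 to 36.7 M (mega) counts, and low counts limit precision. WT libraries were compared between batches in a fit of their own (15413 genes). Alternatives included DESeq2 1.42.0, other scaling, filters and models, and leaving out each library. The steps were tested on simulated data.

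The 9 genes and all lists were chosen with earlier results of these data known. Of the other pathway genes, at most 3 DEGs per line with the largest change and no overlap with their WT were named by rule, with the 2 genes most like each of the 9, the targeted genes, pluripotency genes and Rpph1. A planned protein comparison was replaced by coding sequences. Some results that the rule would name are not reported here.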

Additional observations from a re-analysis of the deposited data

Results flagged for a closer look

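For 7 of the 9 genes, the changes in a pair of lines went in opposite directions and differed by the contrast of both changes in the edgeR quasi-likelihood fit, adjusted over all genes tested. The widest such contrast is given for each gene. How many of all genes tested meet this rule was not counted, so the 7 stand without a background share. Lefty2 rose by 1.60 in WstfΔ and fell by 3.37 in BptfΔ, 4.97 apart (SE 0.13, adjusted p = 2.2e-20). Lefty1 was at 0.86 in the libraries labelled Cecr2Δ and at -3.13 in BptfΔ, 3.99 apart (SE 0.13, adjusted p = 1.89e-18). Id2, at 0.68 in Tip5Δ and -1.83 in WstfΔ, was 2.51 apart (SE 0.15, adjusted p = 5.45e-13). Bmp4 was 1.94 apart between WstfΔ (1.26) and the Cecr2Δ label (-0.68; SE 0.09, adjusted p = 6.81e-15), and Id1 1.23 apart between the same lines (0.51 and -0.72, SE 0.12, adjusted p = 1.15e-08). Id3 was 1.90 apart between Acf1Δ (0.44) and WstfΔ (-1.46; SE 0.14, adjusted p = 2.9e-11). Smad7 was 1.74 apart between WstfΔ (1.49) and Tip5Δ (-0.26; SE 0.095, adjusted p = 1.34e-13). Apart from Rsf1Δ and WstfΔ, the lines carry different batch letters, so each contrast rests on the WT libraries of both batches.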

How the results depend on the processing

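Of the 54 log2 fold changes, DESeq2 and the newer quasi-likelihood form kept the direction and the side of the threshold of all 54, library size only of 52, no filter of 53 and own WT libraries only of 51. A model without batch turned the direction of 10 and weakened 21. It gave, in Rsf1Δ, -0.05 for Smad7, -0.27 for Bmp4 and 0.44 for Id3, in Tip5Δ -0.07 for Nodal, -0.45 for Lefty1, -0.25 for Lefty2, -0.10 for Smad6 and -0.43 for Id1, 0.11 for Bmp4 in the Cecr2Δ label and -0.19 for Id3 in Acf1Δ. This model sets each line against WT of all batches. Without batch, the DEGs among the 9 genes numbered 0 in Rsf1Δ, 3 in WstfΔ and 1 in Acf1Δ, and among the pathway list 0 in Rsf1Δ, 4 in WstfΔ, 0 in Tip5Δ and 0 in Acf1Δ. With no fold-change minimum, which by construction adds genes, the 9 genes gave 5 in Rsf1Δ, 4 in Tip5Δ, 7 in BptfΔ, 8 in the Cecr2Δ label and 7 in Acf1Δ, and the pathway list 14, 25, 10, 29, 17 and 18 in Rsf1Δ, WstfΔ, Tip5Δ, BptfΔ, the Cecr2Δ label and Acf1Δ.

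Leaving out each library in turn, the DEGs among the 9 genes numbered 2 to 3 in Rsf1Δ, 5 in WstfΔ, 0 in Tip5Δ, 3 to 4 in BptfΔ, 0 to 1 in the Cecr2Δ label and 3 in Acf1Δ, and 8 genes differed between WT batches. In the pathway list they numbered 5 to 7 in Rsf1Δ, 11 to 13 in WstfΔ, 5 to 6 in Tip5Δ, 6 to 9 in BptfΔ, 5 to 7 in the Cecr2Δ label and 1 to 2 in Acf1Δ, 1 without Acf1Δ library 1. Groups of 2 then keep a lone library that is assumed to vary like the others. Smad6 in Rsf1Δ ranged from -0.60 to 0.21 (without its replicate 2), and Id1 in BptfΔ from -0.14 to 0.05 (without its replicate 1), neither of them called. Same-numbered libraries did not deviate together (correlations of -0.344 to 0.194), so the numbers do not pair the samples. With the replicate block, 51 of 54 changes kept their call, and those of Lefty1 (0.37, adjusted p = 0.02) and Smad7 (-0.26, adjusted p = 0.0369) in Tip5Δ and Nodal in Acf1Δ (0.23, adjusted p = 0.0192) lost it; a block with crossed numbers in batches C and E, added after seeing the data, kept 53.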
